A study of Mus musculus with 7 samples.

Results

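Interferon-stimulated genes were followed through 7 groups of mouse thymocytes by single-cell RNA sequencing. The 42 listed symbols are genes that many cell types transcribe after interferon exposure, and 41 of them are among the 32286 features counted (Mx1 was not analysed here). They were taken by symbol under a rule that uses no measured value, although the list was drawn up with earlier results of these data known. WT C57BL/6 mice, whose thymi were pooled from animals of 6 to 8 weeks and depleted of CD4+ and CD8+ cells with magnetic beads, gave 5 libraries, named here by stage alone. These were DN3a, the stage before selection on a T cell receptor (TCR), DN3b γδ− and DN4 γδ−, the dividing cells that follow selection on the pre-TCR, and DN3b γδ+ and DN4 γδ+, an early and a later stage with a γδ TCR on the surface. Lat-/- mice, which lack the adaptor LAT that relays TCR signals, also carried the Trdc-H2BEGFP reporter allele, were not depleted with beads and gave 2 libraries, Lat-KO DN3 γδ− and Lat-KO DN3 γδint (intermediate surface γδ TCR). Lat itself stood at 357 to 648 CPM in the WT libraries and at 4.83 CPM for Lat-KO DN3 γδ− and 0.899 CPM for Lat-KO DN3 γδint, as the labels have it. The age of 6 to 8 weeks is stated for the WT thymi, and the labels do not give that of the Lat-KO mice. Each library was 1 pool of sorted cells with 500 splenic B cells added, so no comparison between groups could be tested. Genotype, reporter allele, any difference in age, sort gate, bead depletion and library cannot be told apart between Lat-KO and WT.

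The count of unique molecular identifiers (UMIs, each tagging 1 transcript molecule) was taken over thymocyte barcodes, which are barcodes with at most 1 UMI of the B cell genes Cd79a, Cd79b and Ms4a1. They numbered 71081 of 79076 barcodes after the quality filter, and their median depth ran from 5737.5 UMIs in Lat-KO DN3 γδint and 6418 in DN4 γδ+ to 18506 in DN4 γδ−. T cell markers, with 10 or more UMIs and a 4-fold excess over B cell markers, were found in 91.4% to 99.6% of them. A part of the barcodes of DN4 γδ− (5.45%) and DN4 γδ+ (8.48%) had under 10 T cell marker UMIs, and members whose UMIs lay in such barcodes are given with and without them. Of 70503 distinct barcode sequences, 577 occurred in more than 1 library. Levels are UMIs of a gene scaled to 1000000 UMIs of the thymocyte barcodes (CPM) with exact Poisson 95% intervals, shares of barcodes have exact Clopper-Pearson 95% intervals and ratios have exact conditional binomial 95% intervals, all of which cover counting error only. Each transcript is counted once at its 3′ end, so no level is divided by length.

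Interferons signal through paired receptors. Type I interferons bind IFNAR1 and IFNAR2, whose kinases TYK2 and JAK1 phosphorylate STAT proteins, STAT2 among them, which join IRF9 and bind a promoter element built of GAAA repeats. Type II interferon (IFN-γ) acts through IFNGR1, IFNGR2, JAK1 and JAK2, and it induces the guanylate-binding proteins and immunity-related GTPases most strongly. The products sense viral RNA and DNA, block translation, tag proteins with ISG15 or cut short the response. In the thymus a low tonic interferon supply, in part from medullary epithelium, is known to reach developing thymocytes.

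The promoter stretches below hold letters that match a GAAA repeat. They are printed for 10 of the members with a match, as examples chosen with the values known. In the 300 bases from 250 before to 50 after the annotated start, GAAA, any 2 bases and GAAA on either strand was found in 22 of the 33 members with an entry in the RefSeq promoter table (GRCm38.p6), a share of 66.7%. Over all 27025 genes of that table the share was 3.99% (1079 genes). A match is a description of letters and not a bound site. Members without it included Irf7, Ifit2, Samhd1 and Ifi44. Capitals mark the 4-base units, which read TTTC where the element lies on the other strand, and all sequences run 5′ to 3′ on the strand of the gene. Isg15 (GRCm38, chr4:156200860-156200911, minus strand) holds 3 overlapping copies, 78 to 66 bases before its start. Ifit1 (chr19:34640770-34640828, plus strand) holds 2 copies. Ifit3 (chr19:34583358-34583431, plus strand) and Ifit3b (chr19:34607754-34607827, plus strand) share the same 74 bases, as close relatives whose reads may be split. Bst2 (chr8:71537572-71537617, minus strand) has 2 overlapping copies. Single copies are shown for Stat2 (chr10:128270261-128270300, plus strand), Ifi203 (chr1:173942503-173942542, minus strand), Gbp7 (chr3:142530268-142530307, plus strand), Cxcl10 (chr5:92349078-92349117, minus strand) and Slfn5 (chr11:82951932-82951971, plus strand).
Isg15: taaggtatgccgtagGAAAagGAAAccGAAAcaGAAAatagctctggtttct
Ifit1: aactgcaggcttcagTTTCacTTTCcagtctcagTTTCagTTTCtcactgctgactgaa
Ifit3: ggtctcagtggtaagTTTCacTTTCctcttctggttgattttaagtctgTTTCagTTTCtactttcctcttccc
Ifit3b: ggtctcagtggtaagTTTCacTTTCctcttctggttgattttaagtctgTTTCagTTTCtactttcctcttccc
Bst2: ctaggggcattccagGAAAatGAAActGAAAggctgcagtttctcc
Stat2: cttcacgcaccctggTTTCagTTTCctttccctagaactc
Ifi203: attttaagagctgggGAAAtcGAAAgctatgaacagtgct
Gbp7: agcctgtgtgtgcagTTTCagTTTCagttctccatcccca
Cxcl10: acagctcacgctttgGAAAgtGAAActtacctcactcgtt
Slfn5: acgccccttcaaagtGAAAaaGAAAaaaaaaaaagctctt

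Summed over the list, the members were lowest in the dividing groups. Their summed level was 1505.5 CPM (1495 to 1516) in DN3a, before selection. It was 556 CPM (554 to 559) for DN3b γδ−, 493 CPM (490.3 to 496) for DN4 γδ− and 471 CPM (468 to 474) for DN3b γδ+, the groups in division after selection. It stood at 1339 CPM (1330.1 to 1347) in DN4 γδ+, 2126 CPM (2114 to 2139) for Lat-KO DN3 γδ− and 1735 CPM (1722 to 1748) for Lat-KO DN3 γδint. Bst2 alone gave 548 CPM of the sum in DN3a and 108 CPM in DN4 γδ+. Without Bst2, Isg20 and Ifi27l2a the sum was 926 CPM (918 to 934) in DN3a and 1104 CPM (1096 to 1111) in DN4 γδ+, so the order of these 2 libraries turned. Of the 41 members, 23 had their highest level in Lat-KO DN3 γδ−, 10 in DN4 γδ+, 7 in Lat-KO DN3 γδint and 1, Bst2, in DN3a. No such count was made over all features, which also differed between libraries. Their median log2 ratio to DN3a was 0.22 for Lat-KO DN3 γδ−, 0.39 for Lat-KO DN3 γδint and -0.02 for DN4 γδ+. In the dividing groups it was -0.32 to -0.23. Per thymocyte barcode, the sums over all 41 were 11.9 UMIs in DN3a, 10.2 for DN3b γδ−, 9.28 for DN4 γδ−, 7.46 for DN3b γδ+, 10.7 in DN4 γδ+, 16.5 for Lat-KO DN3 γδ− and 12.4 for Lat-KO DN3 γδint, so the low CPM of the dividing groups went with barcodes that held more UMIs in all. The barcodes read as added splenic B cells (B-like) carried 1641 to 2289 CPM of the members. Lat stood in them at 48.3 to 122 CPM in the WT libraries, 2.33 CPM in Lat-KO DN3 γδ− and 1.99 CPM in Lat-KO DN3 γδint. Transcripts of the thymocytes may thus be among those of B-like barcodes, and their part in the B-like values was not tested. Markers of other cell types also differed between libraries. The 4 epithelial markers, most of them Epcam UMIs, summed to 172 CPM in DN3a, 26.6 to 48.0 CPM in the 3 dividing groups and 29.6 CPM in DN4 γδ+. They summed to 138 CPM for Lat-KO DN3 γδ− and 176 CPM for Lat-KO DN3 γδint. The 5 erythroid markers ran from 0.168 CPM in DN3a to 169.9 CPM in DN4 γδ−. Myeloid and plasmacytoid markers were low in the dividing groups and highest in Lat-KO DN3 γδ−. The 7 myeloid markers summed to 151 CPM in DN3a, 99.3 to 120.1 CPM in the 3 dividing groups, 129 CPM in DN4 γδ+, 190.4 CPM for Lat-KO DN3 γδ− and 148 CPM for Lat-KO DN3 γδint, and the 5 plasmacytoid markers to 126 CPM, 44.0 to 51.1 CPM, 60.96 CPM, 139.7 CPM and 123 CPM in the same order. Most of these UMIs were Cst3 (97.0 to 143 CPM) and Tcf4 (34.4 to 107 CPM), while the defining markers Csf1r, Adgre1, C1qa, Itgam and Siglech held 0 to 40 UMIs per library. Lyz2 of the myeloid list stood at 19.7 CPM in DN3a, 44.4 CPM for Lat-KO DN3 γδ−, 35.9 CPM for Lat-KO DN3 γδint and 0.158 to 1.31 CPM in the other libraries, and Spib of the plasmacytoid list at 20.7, 20.8, 14.3 and 0.315 to 0.759 CPM in the same order. Adgre1 was at 0 UMIs in DN3b γδ− and Lat-KO DN3 γδ−, Itgam in Lat-KO DN3 γδint, and Siglech in DN3a and DN4 γδ+. Without barcodes that held 2 or more UMIs of the 12 myeloid and plasmacytoid markers, which left 32.8% to 60.6% of the thymocyte barcodes, the member median log2 ratios to DN3a were -1.60 for DN3b γδ−, -1.79 for DN4 γδ−, -1.50 for DN3b γδ+, 0.40 for DN4 γδ+, 0.75 for Lat-KO DN3 γδ− and 0.58 for Lat-KO DN3 γδint. This rule was read without thinning, so a barcode could be left out for its depth. Cst3 was found in 50.6% to 77.8% of barcodes and Tcf4 in 27.8% to 52.4%, so the rule does not single out cells of those types.

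**Figure D1:**
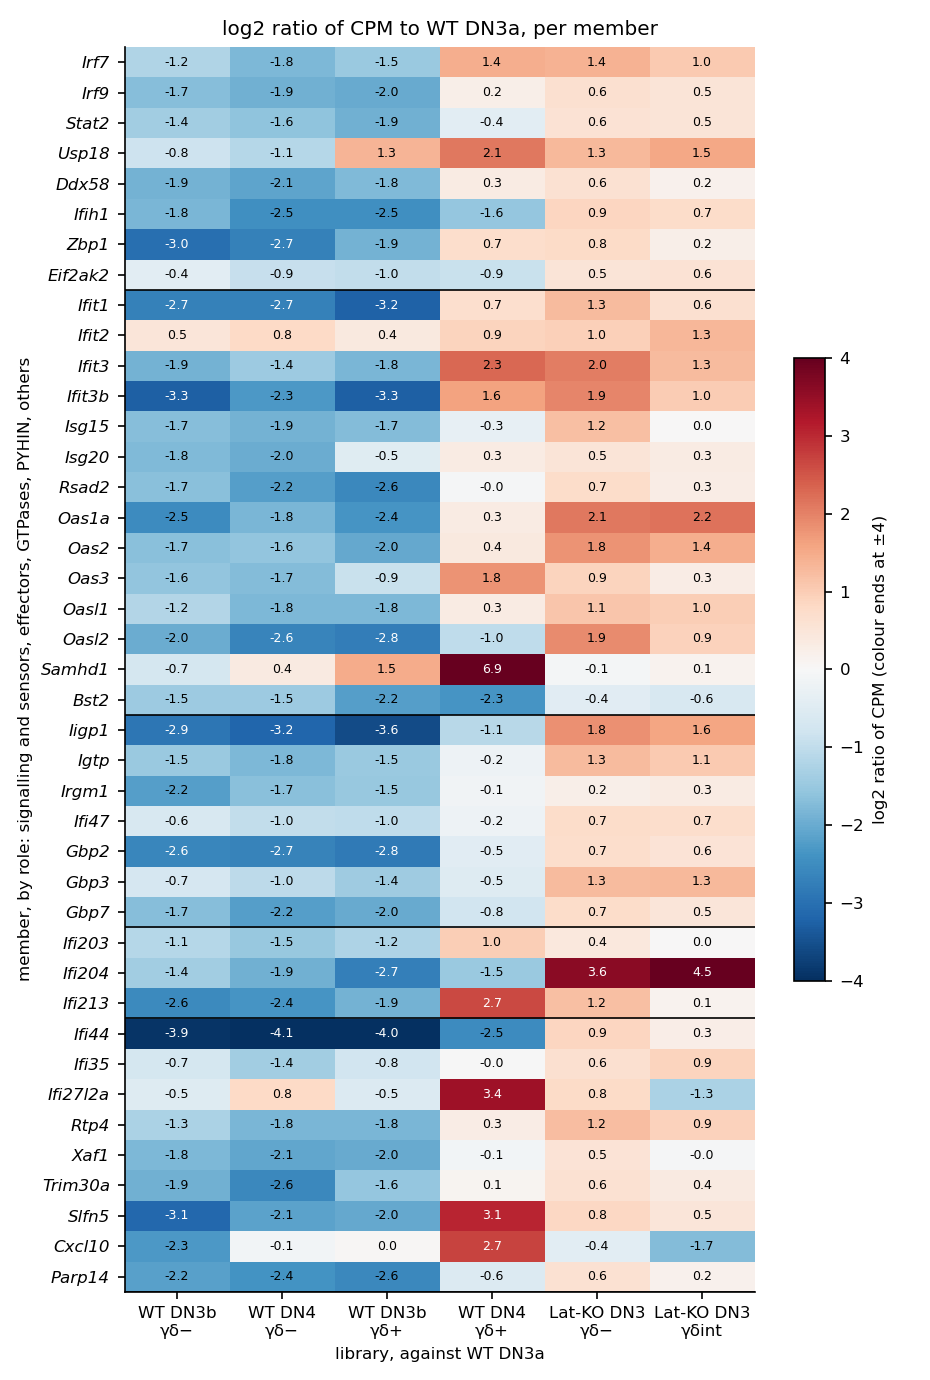
Each row is a member, grouped by role, and each column a library set against WT DN3a; the colour is the log2 ratio of CPM over thymocyte barcodes, with its ends at ±4. The 3 columns of WT DN3b γδ−, WT DN4 γδ− and WT DN3b γδ+ are mostly on the low side, with Samhd1 and Usp18 higher in WT DN3b γδ+, and the Lat-KO DN3 γδ− column is mostly on the high side.

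Among signalling factors and sensors, Stat2 (ENSMUSG00000040033, chr10:128270559-128292849, plus strand), a part of the factor that type I interferon activates, stood at 15 CPM for DN3a, 5.7 for DN3b γδ−, 4.94 for DN4 γδ−, 4 for DN3b γδ+, 11.1 for DN4 γδ+, 22.6 for Lat-KO DN3 γδ− and 21.4 for Lat-KO DN3 γδint. Its highest level was 22.6 CPM (21.3 to 23.9) and its lowest 4 CPM (3.72 to 4.29). The interval of Lat-KO DN3 γδ− overlaps that of Lat-KO DN3 γδint. Irf7 (ENSMUSG00000025498, chr7:141262706-141266481, minus strand), the factor that amplifies type I interferon production, stood at 11.3 CPM for DN3a, 4.91 for DN3b γδ−, 3.24 for DN4 γδ−, 4.05 for DN3b γδ+, 30.7 for DN4 γδ+, 29.6 for Lat-KO DN3 γδ− and 23.1 for Lat-KO DN3 γδint. Unlike Stat2 it was higher in DN4 γδ+ (30.7 CPM (29.4 to 32)) than in DN3a (11.3 CPM (10.4 to 12.2)). Irf9, which brings STAT2 to DNA, ran from 6.82 CPM in DN3b γδ+ to 42.8 in Lat-KO DN3 γδ−. The RNA sensors Ddx58 (RIG-I, 5.67 CPM in DN4 γδ− to 37 in Lat-KO DN3 γδ−) and Ifih1 (MDA5, 3.77 CPM in DN4 γδ− to 37.5 in Lat-KO DN3 γδ−) parted in DN4 γδ+, where Ddx58 was at 30.8 CPM against 24.3 in DN3a and Ifih1 at 7.07 against 20.8. Zbp1, a sensor of Z-form nucleic acid, ran from 4.12 CPM in DN3b γδ− to 56.4 in Lat-KO DN3 γδ−, and Eif2ak2, the kinase PKR that halts translation on double-stranded RNA, from 15.3 CPM in DN3b γδ+ to 44.9 in Lat-KO DN3 γδint. Usp18, the protease that removes ISG15 and dampens IFNAR signalling, stood at 10.2 CPM for DN3a, 5.7 for DN3b γδ−, 4.62 for DN4 γδ−, 25.8 for DN3b γδ+, 43.5 for DN4 γδ+, 24.7 for Lat-KO DN3 γδ− and 29.5 for Lat-KO DN3 γδint. It was the signalling member whose level in DN3b γδ+ lay above that in DN3a.

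Of the antiviral effectors, Bst2 (ENSMUSG00000046718, chr8:71534255-71537456, minus strand), the membrane protein tetherin that holds budding virions, stood at 548 CPM for DN3a, 199.7 for DN3b γδ−, 198 for DN4 γδ−, 120.2 for DN3b γδ+, 108 for DN4 γδ+, 402 for Lat-KO DN3 γδ− and 352 for Lat-KO DN3 γδint. Its level was lower in every other library than in DN3a (548 CPM (542 to 554)), and in DN4 γδ+ (108 CPM (105 to 110.1)) it was lower than in DN3b γδ+ (120.2 CPM (119 to 122)). At 4000 UMIs per barcode Bst2 was found in 85.3% of DN3a, 54.3% of DN3b γδ−, 53.2% of DN4 γδ−, 36.4% of DN3b γδ+, 28.1% of DN4 γδ+, 73.4% of Lat-KO DN3 γδ− and 72% of Lat-KO DN3 γδint; without thinning the shares ran from 40.1% to 93.4%. Isg15 (ENSMUSG00000035692, chr4:156199424-156200818, minus strand), the ubiquitin-like protein that gives the list its best known marker, stood at 91.2 CPM for DN3a, 27.9 for DN3b γδ−, 24.4 for DN4 γδ−, 27.1 for DN3b γδ+, 71.9 for DN4 γδ+, 209.9 for Lat-KO DN3 γδ− and 92.5 for Lat-KO DN3 γδint. The highest level was 209.9 CPM (206 to 214) and the level of Lat-KO DN3 γδint, 92.5 CPM (89.4 to 95.6), lay on that of DN3a, 91.2 CPM (88.7 to 93.8). Isg15 was detected at 4000 UMIs in 20.7% of DN3a, 8.99% of DN3b γδ−, 7.32% of DN4 γδ−, 9.24% of DN3b γδ+, 15.6% of DN4 γδ+, 35.4% of Lat-KO DN3 γδ− and 22.7% of Lat-KO DN3 γδint, and without thinning in 21.7% to 48.7%.

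Ifit1 (ENSMUSG00000034459, chr19:34640871-34650009, plus strand), which binds viral RNA that lacks cap methylation, stood at 12.8 CPM for DN3a, 1.97 for DN3b γδ−, 1.98 for DN4 γδ−, 1.35 for DN3b γδ+, 20.3 for DN4 γδ+, 31.1 for Lat-KO DN3 γδ− and 19.9 for Lat-KO DN3 γδint. Ifit3 (ENSMUSG00000074896, chr19:34583531-34588731, plus strand), its partner protein, stood at 1.64 CPM for DN3a, 0.446 for DN3b γδ−, 0.6 for DN4 γδ−, 0.465 for DN3b γδ+, 8.05 for DN4 γδ+, 6.78 for Lat-KO DN3 γδ− and 3.94 for Lat-KO DN3 γδint. Both were lowest in the dividing WT groups, and Ifit3 was highest in DN4 γδ+ (8.05 CPM (7.4 to 8.74), with 6.78 CPM (6.08 to 7.54) in Lat-KO DN3 γδ−). Ifit2, another RNA-binding member of the family, had a flatter course, from 3.42 CPM in DN3a to 8.59 in Lat-KO DN3 γδint, and its lowest level was that of DN3a. Ifit3b ran from 0.0561 CPM in DN3b γδ− to 2.07 in Lat-KO DN3 γδ−. Rsad2 (viperin, which makes a chain-ending nucleotide) ran from 1.26 CPM in DN3b γδ+ to 12.7 in Lat-KO DN3 γδ− and Isg20, an exonuclease, from 5.6 CPM in DN4 γδ− to 31.2 in Lat-KO DN3 γδ−. The oligoadenylate synthetases, which switch on RNA decay, ran from 0.511 CPM in DN3b γδ− to 13.1 in Lat-KO DN3 γδint for Oas1a, from 0.199 CPM in DN3b γδ+ to 2.82 in Lat-KO DN3 γδ− for Oas2 and from 1.2 CPM in DN4 γδ− to 14.1 in DN4 γδ+ for Oas3. Their relatives Oasl1 and Oasl2 ran from 1.24 CPM in DN4 γδ− to 9.3 in Lat-KO DN3 γδ− and from 1.64 CPM in DN3b γδ+ to 41.3 in Lat-KO DN3 γδ−. Samhd1, which depletes nucleotides for viral copying, stood apart from all of these, at 0.484 CPM for DN3a, 0.298 for DN3b γδ−, 0.624 for DN4 γδ−, 1.36 for DN3b γδ+, 59.6 for DN4 γδ+, 0.457 for Lat-KO DN3 γδ− and 0.529 for Lat-KO DN3 γδint. It was found at 4000 UMIs in 19.2% (18.3 to 20.2) of the barcodes of DN4 γδ+ and in 0.0905% to 0.746% of those of the other libraries, while B-like barcodes of those other libraries, where B cells transcribe the gene, reached 25.6% to 61.3%. Without thinning the shares were 25.4% in DN4 γδ+ and 0.278% to 1.67% elsewhere. Barcodes of DN4 γδ+ with T cell markers held it at 59.4 CPM.

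The interferon-inducible GTPases, which attack the vacuoles of intracellular pathogens, were led by Ifi47 and Gbp7. Ifi47 (ENSMUSG00000078920, chr11:49076587-49096974, plus strand) stood at 93.7 CPM for DN3a, 60.1 for DN3b γδ−, 47.8 for DN4 γδ−, 46.6 for DN3b γδ+, 82 for DN4 γδ+, 156 for Lat-KO DN3 γδ− and 153 for Lat-KO DN3 γδint. Gbp7 (ENSMUSG00000040253, chr3:142530342-142550149, plus strand), a guanylate-binding protein, stood at 80.2 CPM for DN3a, 24.6 for DN3b γδ−, 17.2 for DN4 γδ−, 20 for DN3b γδ+, 46.9 for DN4 γδ+, 133 for Lat-KO DN3 γδ− and 111 for Lat-KO DN3 γδint. In both the Lat-KO libraries were higher than the 5 WT libraries. The same held for the other 5, Iigp1 (from 1.38 CPM in DN3b γδ+ to 58.9 in Lat-KO DN3 γδ−), Igtp (from 7.69 CPM in DN4 γδ− to 64.4 in Lat-KO DN3 γδ−), Irgm1 (from 6.95 CPM in DN3b γδ− to 40.8 in Lat-KO DN3 γδint), Gbp2 (from 3.39 CPM in DN3b γδ+ to 39.7 in Lat-KO DN3 γδ−) and Gbp3 (from 2.63 CPM in DN3b γδ+ to 17.4 in Lat-KO DN3 γδint). Gbp2, Gbp3 and Gbp7 are relatives whose reads may be shared.

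The PYHIN genes code for sensors of DNA in the nucleus and cytosol. Ifi203 (ENSMUSG00000039997, chr1:173920407-173942672, minus strand) stood at 102 CPM for DN3a, 46.7 for DN3b γδ−, 35.5 for DN4 γδ−, 43.6 for DN3b γδ+, 202 for DN4 γδ+, 137 for Lat-KO DN3 γδ− and 102 for Lat-KO DN3 γδint. Its highest level was 202 CPM (199 to 206), and it was found at 4000 UMIs in 31.1% of DN3a, 17.1% of DN3b γδ−, 13.1% of DN4 γδ−, 16.5% of DN3b γδ+, 52.5% of DN4 γδ+, 39% of Lat-KO DN3 γδ− and 33.8% of Lat-KO DN3 γδint (without thinning in 42.1% to 63.4%). Ifi213 was also highest in DN4 γδ+, from 0.257 CPM in DN3b γδ− to 9.47 in DN4 γδ+. Ifi204 was highest in the Lat-KO libraries, with 11.1 CPM for Lat-KO DN3 γδ− and 20.9 for Lat-KO DN3 γδint and at most 0.912 in the 5 WT libraries. These 3 genes lie within 376 kb of chromosome 1 and are close relatives, so reads may be split among them.

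Of the other members, Trim30a (ENSMUSG00000030921, chr7:104409025-104465193, minus strand), a ubiquitin ligase of a mouse gene cluster, stood at 56.3 CPM for DN3a, 15 for DN3b γδ−, 9.4 for DN4 γδ−, 19.1 for DN3b γδ+, 61.4 for DN4 γδ+, 86.5 for Lat-KO DN3 γδ− and 72.3 for Lat-KO DN3 γδint. Rtp4 (ENSMUSG00000033355, chr16:23520291-23614222, plus strand), a receptor transporter that binds nucleic acid in the antiviral response, stood at 35.1 CPM for DN3a, 14.5 for DN3b γδ−, 9.85 for DN4 γδ−, 9.93 for DN3b γδ+, 43 for DN4 γδ+, 83.1 for Lat-KO DN3 γδ− and 67.2 for Lat-KO DN3 γδint. Cxcl10 (ENSMUSG00000034855, chr5:92346638-92348889, minus strand), a chemokine that draws CXCR3-bearing T cells, stood at 1.15 CPM for DN3a, 0.236 for DN3b γδ−, 1.08 for DN4 γδ−, 1.18 for DN3b γδ+, 7.52 for DN4 γδ+, 0.855 for Lat-KO DN3 γδ− and 0.344 for Lat-KO DN3 γδint. Its level in DN4 γδ+ was 7.52 CPM (6.89 to 8.19), and within barcodes that met the T cell marker rule it was 7.45 CPM there, 0.783 in DN3a and 0.492 in DN4 γδ−. Ifi27l2a (ENSMUSG00000079017, chr12:103442167-103443680, minus strand), a small protein of the mitochondrial or nuclear membrane, stood at 9.45 CPM for DN3a, 6.66 for DN3b γδ−, 16.6 for DN4 γδ−, 6.46 for DN3b γδ+, 99.9 for DN4 γδ+, 16.2 for Lat-KO DN3 γδ− and 3.94 for Lat-KO DN3 γδint. With the T cell marker rule it was 99.7 CPM in DN4 γδ+ and 10.8 in DN4 γδ−, and the B-like barcodes held 125 to 671 CPM. Slfn5, a Schlafen protein, ran from 0.472 CPM in DN3b γδ− to 34.8 in DN4 γδ+, Ifi44 from 0.822 CPM in DN4 γδ− to 26 in Lat-KO DN3 γδ−, Ifi35 from 15.9 CPM in DN4 γδ− to 77.3 in Lat-KO DN3 γδint, Xaf1, which antagonizes the apoptosis inhibitor XIAP, from 7.32 CPM in DN4 γδ− to 44.9 in Lat-KO DN3 γδ−, and Parp14, an ADP-ribosyltransferase, from 7.31 CPM in DN3b γδ+ to 67.6 in Lat-KO DN3 γδ−.

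**Figure D2:**
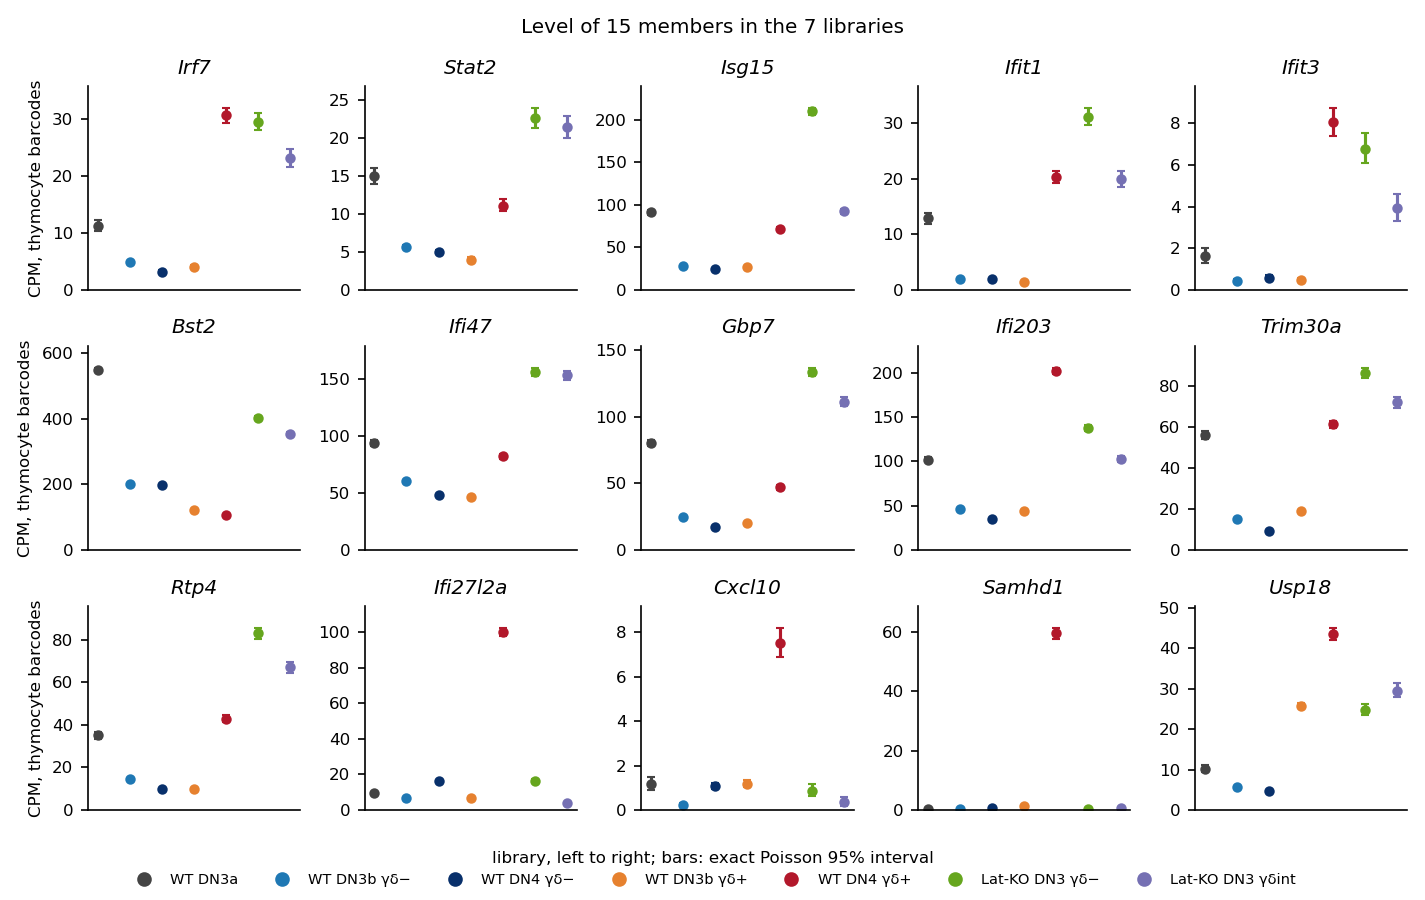
Each panel is 1 member, each point 1 library from left to right in the order WT DN3a, WT DN3b γδ−, WT DN4 γδ−, WT DN3b γδ+, WT DN4 γδ+, Lat-KO DN3 γδ− and Lat-KO DN3 γδint, and the vertical axis is CPM from 0 with exact Poisson 95% intervals. Isg15, Gbp7, Ifi47 and Stat2 have their highest point in Lat-KO DN3 γδ−, Samhd1, Ifi27l2a, Cxcl10 and Usp18 in WT DN4 γδ+, and Bst2 in WT DN3a.

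In the dividing groups most members lay below DN3a. DN3b γδ− held 33 of 41 members at least 2-fold lower and 0 at least 2-fold higher, beside 25.5% and 10.4% of the 14768 features with at least 20 UMIs over both libraries. The median of the members was -1.71 on the log2 scale and that of all features -0.27. Ifi44, a cytoplasmic protein of the antiviral response, had the lowest ratio, -3.91 (-4.10 to -3.72), followed by Ifit3b at -3.27 (-4.18 to -2.38) and Slfn5 at -3.15 (-3.45 to -2.85). The highest were Ifit2 at 0.48 (0.26 to 0.71), Eif2ak2 at -0.41 (-0.49 to -0.33) and Ifi27l2a at -0.50 (-0.64 to -0.36). The other 5 members that were not 2-fold lower were Usp18, Samhd1, Ifi35, Gbp3 and Ifi47.

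DN4 γδ− held 35 of 41 members at least 2-fold lower and 0 higher, beside 26.4% and 11.1% of 14953 features. The median was -1.84, against -0.32 for all features. Ifi44 was again lowest at -4.13 (-4.37 to -3.91), with the GTPase Iigp1 at -3.18 (-3.35 to -3.02) and the sensor Zbp1 at -2.71 (-2.81 to -2.60). The highest were Ifi27l2a at 0.81 (0.67 to 0.94), Ifit2 at 0.78 (0.56 to 1.01) and Samhd1 at 0.37 (-0.24 to 1.03), the interval of the last including 0.

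DN3b γδ+ held 32 members at least 2-fold lower and 2 higher, beside 24% and 13.3% of 14472 features. The median was -1.82, against -0.23 for all features. Ifi44 stood at -4.02 (-4.27 to -3.78), Iigp1 at -3.59 (-3.79 to -3.39) and Ifit3b at -3.26 (-4.41 to -2.22). The 2 higher members were Samhd1 at 1.49 (0.91 to 2.13), from few UMIs (266 against 26), and Usp18 at 1.35 (1.22 to 1.48), and the next was Ifit2 at 0.39 (0.16 to 0.62). All 7 GTPases and all 3 PYHIN genes were at least 2-fold lower.

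The size of these differences moved with the scale. Taken as UMIs per thymocyte barcode without scaling, the member medians were -0.49 for DN3b γδ−, -0.58 for DN4 γδ− and -0.82 for DN3b γδ+, where all features had medians of 0.95, 0.93 and 0.78, and 11, 11 and 15 members were at least 2-fold lower, beside 6.28%, 6.65% and 8.35% of all features on that scale. The summed level of 8 cycling genes was 2351, 2306 and 2295 CPM in these libraries, 126 CPM in DN3a, 349 CPM for Lat-KO DN3 γδ− and 1462 CPM for Lat-KO DN3 γδint, which had a high member sum as well. Among barcodes with 0 cycling UMIs, 526, 366 and 638 in number, the medians were -1.13, -1.29 and -1.12. In B-like barcodes, with 23 to 26 members counted, the members had medians of -0.32, -0.37 and -0.41 beside 0.25, 0.10 and 0.13 for all features. The part of cell division, total RNA and library in the lower member CPM was not tested.

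**Figure D3:**
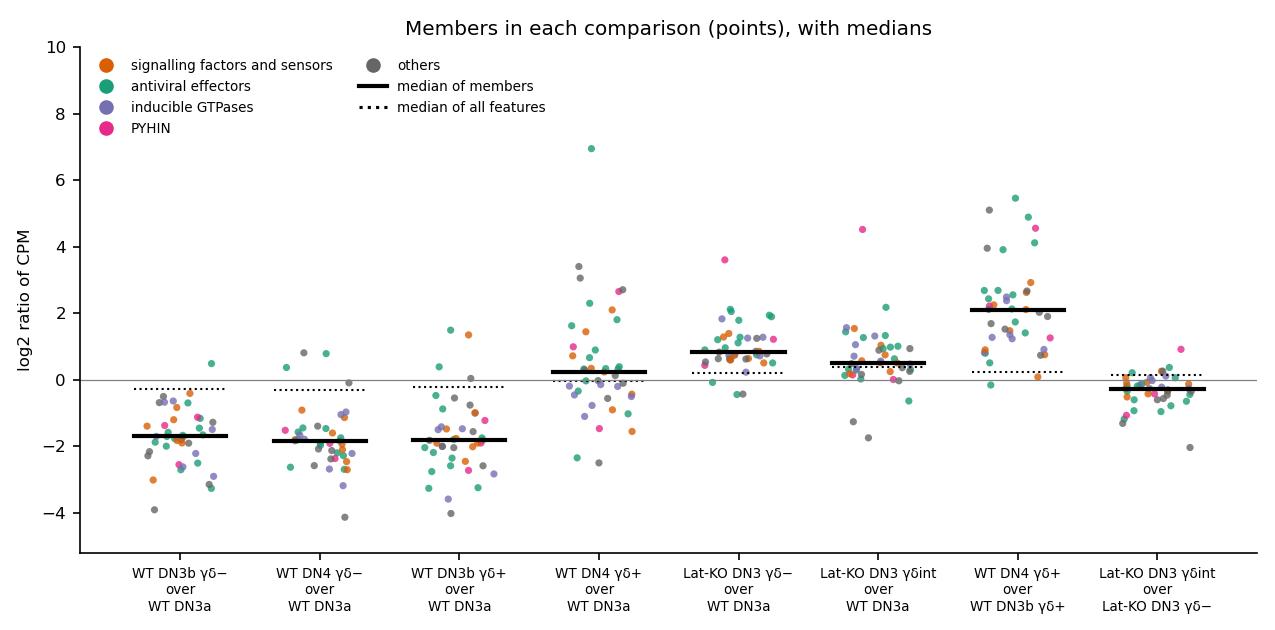
Each point is a member, coloured by role, in 1 of 8 comparisons on the horizontal axis, and the vertical axis is the log2 ratio of CPM. Solid lines are member medians (-1.71, -1.84, -1.82, 0.23, 0.83, 0.51, 2.11 and -0.27 from left to right) and dotted lines the medians of all features with at least 20 UMIs over both libraries. The single point near 7 in the WT DN4 γδ+ column is Samhd1.

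In the later γδ stage members lay on both sides of DN3a. DN4 γδ+ held 10 members at least 2-fold above DN3a and 6 at least 2-fold below it, beside 15.1% and 12.5% of 14089 features, with a median of 0.23 (-0.02 for all features). The lower count is a share of the members near that of all features. The higher members were Samhd1, Ifi27l2a, Slfn5, Ifi213, Cxcl10, Ifit3, Usp18, Oas3, Ifit3b and Irf7. Samhd1 had the highest ratio, 6.94 (6.39 to 7.56), from 4163 UMIs against 26. Ifi27l2a followed at 3.40 (3.27 to 3.53) and Slfn5 at 3.05 (2.86 to 3.26). The lowest were Ifi44 at -2.50 (-2.74 to -2.26), Bst2 at -2.35 (-2.38 to -2.31) and Ifih1 at -1.56 (-1.71 to -1.40), and Ifi204, Iigp1 and Oasl2 were the other 3 that were at least 2-fold lower. No GTPase was 2-fold higher. Without the barcodes that carried at least 3 core loci (defined below) and those too shallow for thinning, the median was -0.23.

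Between the γδ stages, DN4 γδ+ held 32 members at least 2-fold above DN3b γδ+ and 0 below it, beside 20.6% and 8.03% of 14612 features. The median was 2.11, with 0.24 for all features, and 1.13 with -0.74 for all features as UMIs per barcode. Samhd1 stood at 5.46 (5.28 to 5.64), Slfn5 at 5.10 (4.89 to 5.31) and Ifit3b at 4.89 (3.99 to 5.93), the 3 members with the largest difference. The lowest were Bst2 at -0.16 (-0.20 to -0.12), Eif2ak2 at 0.08 (-0.02 to 0.18) and Ifit2 at 0.51 (0.34 to 0.67). In B-like barcodes the median of 25 members was 0.39 (-0.07 for all features). The cycling genes summed to 1095 CPM in DN4 γδ+ and 2295 in DN3b γδ+, and among barcodes with 0 cycling UMIs the median was 1.54.

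In the Lat-KO γδ− thymocytes most members were above DN3a. Lat-KO DN3 γδ− held 16 members at least 2-fold above DN3a and 0 below it, beside 5.85% and 3.85% of 13465 features. The median was 0.83, with 0.22 for all features. The ratio was above 0 for 38 of 41 members, a count not made over all features, whose median was above 0 too. The 16 were Ifi204, Oas1a, Ifit3, Ifit3b, Oasl2, Iigp1, Oas2, Irf7, Usp18, Ifit1, Igtp, Gbp3, Rtp4, Ifi213, Isg15 and Oasl1. The DNA sensor Ifi204 stood at 3.60 (3.18 to 4.05), Oas1a at 2.12 (1.86 to 2.38) and Ifit3 at 2.05 (1.71 to 2.40). The lowest were Bst2 at -0.45 (-0.47 to -0.42), Cxcl10 at -0.43 (-1.03 to 0.15) and Samhd1 at -0.08 (-0.96 to 0.78), the last 2 with intervals that include 0. In B-like barcodes the median of 27 members was 0.11 (0.24 for all features).

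Lat-KO DN3 γδint held 11 members at least 2-fold above DN3a and 2 below it, beside 14.2% and 7.57% of 13316 features. Its member median of 0.51 stood close to the 0.39 of all features (in B-like barcodes 24 members had 0.10 and all features 0.55), and the TMM scaling of edgeR, a trimmed mean over genes, put it at 0.094 with 5 members higher and 3 lower, beside 5.14% and 12.3% of all features under TMM. Ifi204 stood at 4.52 (4.10 to 4.96), Oas1a at 2.18 (1.91 to 2.44) and Iigp1 at 1.56 (1.45 to 1.68). The others of the 11 were Ifit3b, Irf7, Igtp, Ifit3, Gbp3, Ifit2, Oas2 and Usp18. Cxcl10 at -1.75 (-2.73 to -0.87) and Ifi27l2a at -1.26 (-1.54 to -0.997) were the 2 lower members. Features whose longest annotated transcript is under 700 nucleotides, Ifi27l2a among them, had a median of -1.02 in thymocytes and -1.72 in B-like barcodes in the same comparison. Bst2 stood at -0.64 (-0.67 to -0.61).

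Within Lat-KO, Lat-KO DN3 γδint held 4 members at least 2-fold below Lat-KO DN3 γδ− and 0 above it, beside 5.07% and 5.55% of 13166 features. The median was -0.27, with 0.15 for all features. The lower count moved to 7 with TMM, beside 7.6% of all features. It moved to 1 of 39 without barcodes of 2 or more myeloid or plasmacytoid UMIs, beside 4.26%. The 4 were Ifi27l2a at -2.04 (-2.30 to -1.78), Cxcl10 at -1.31 (-2.33 to -0.39), Isg15 at -1.18 (-1.24 to -1.13) and Ifi213 at -1.07 (-1.51 to -0.65). The highest were Ifi204 at 0.91 (0.76 to 1.07), Ifit2 at 0.37 (0.14 to 0.59) and Ifi35 at 0.26 (0.18 to 0.33). Lat-KO DN3 γδint is the library with a low share of ribosomal-protein UMIs, 18.1% in thymocytes and 19.4% in B-like barcodes, where the other libraries had 27.6% to 33.7% and 29.7% to 35.04%. Over 461 features whose longest annotated transcript is under 700 nucleotides, the median ratio of the same pair was -0.74 in thymocytes, and over 94 such features it was -1.34 in B-like barcodes. Ifi27l2a, at 463 nucleotides, stood at -1.73 (-2.14 to -1.34) in B-like barcodes too. Isg15, at 756 nucleotides, stood there at -0.19 (-1.05 to 0.62) from 20 and 39 UMIs.

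Upstream of the members, transcripts of the type I and type III ligands were scarce. Of 8 type I and type III interferon genes counted, the 7 libraries held 0 to 5 UMIs each, and Ifna1, Ifnb1 and Ifne had 0 UMIs in every library, where 3 UMIs, the limit set for a count of 0, would be 0.00886 CPM in DN3b γδ− and 0.0793 CPM in Lat-KO DN3 γδint. Ifng, the type II interferon, stood at 5.64 CPM for DN3a, 0.357 for DN3b γδ−, 0.275 for DN4 γδ−, 8.53 for DN3b γδ+, 7.06 for DN4 γδ+, 6.78 for Lat-KO DN3 γδ− and 5.34 for Lat-KO DN3 γδint. The type I receptor chain Ifnar1 stood at 34.6 CPM for DN3a, 14.3 for DN3b γδ−, 15 for DN4 γδ−, 17.1 for DN3b γδ+, 48.6 for DN4 γδ+, 44.2 for Lat-KO DN3 γδ− and 32.4 for Lat-KO DN3 γδint, and Ifnar2 ran from 42 CPM in DN4 γδ− to 84.4 in DN4 γδ+. The ligand-binding chain of the type II receptor, Ifngr1, stood at 264 CPM for DN3a, 141 for DN3b γδ−, 102 for DN4 γδ−, 85.3 for DN3b γδ+, 282 for DN4 γδ+, 383 for Lat-KO DN3 γδ− and 359 for Lat-KO DN3 γδint. Its partner Ifngr2 ran from 7.3 CPM in DN3a to 28.1 in DN4 γδ+. Of 5 receptor genes with enough UMIs, 0 were at least 2-fold higher or lower than in DN3a in the Lat-KO libraries (beside 5.85% and 3.85% of all features for Lat-KO DN3 γδ− and 14.2% and 7.57% for Lat-KO DN3 γδint), 2 were higher in DN4 γδ+ (beside 15.1% of all features), and 1 to 2 were lower in the dividing groups (beside 24% to 26.4% of all features).

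Of the 9 kinases and factors, those at least 2-fold lower than in DN3a numbered 4 in DN3b γδ−, 5 in DN4 γδ− and 2 in DN3b γδ+, beside 25.5%, 26.4% and 24% of all features. Irf1, the first factor induced by IFN-γ, stood at 65.8 CPM for DN3a, 25.6 for DN3b γδ−, 28.9 for DN4 γδ−, 22.6 for DN3b γδ+, 51.3 for DN4 γδ+, 84.4 for Lat-KO DN3 γδ− and 71.5 for Lat-KO DN3 γδint, and Jak1, the kinase on both receptors, at 164 CPM for DN3a, 101 for DN3b γδ−, 80 for DN4 γδ−, 147 for DN3b γδ+, 292 for DN4 γδ+, 186 for Lat-KO DN3 γδ− and 172 for Lat-KO DN3 γδint. In DN4 γδ+ Jak1 stood at a log2 ratio of 0.83 (0.80 to 0.87) to DN3a and Irf1 at -0.36 (-0.43 to -0.29). Of the 4 inhibitors, Socs1, which binds JAK kinases, stood at 128 CPM for DN3a, 40.7 for DN3b γδ−, 35.5 for DN4 γδ−, 40.3 for DN3b γδ+, 66.7 for DN4 γδ+, 212 for Lat-KO DN3 γδ− and 166 for Lat-KO DN3 γδint, and Socs3, which acts mainly on STAT3-linked receptors, at 62 CPM for DN3a, 8.57 for DN3b γδ−, 6.95 for DN4 γδ−, 7.59 for DN3b γδ+, 17.8 for DN4 γδ+, 111 for Lat-KO DN3 γδ− and 106 for Lat-KO DN3 γδint. Both were lower in the dividing groups and had their highest levels in Lat-KO DN3 γδ−, and the phosphatases Ptpn2 and Ptpn6 ran from 58.4 CPM in DN3b γδ− to 89.4 in Lat-KO DN3 γδint and from 74.2 CPM in DN3a to 163 in DN3b γδ+.

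Whether a member was spread over barcodes or held by few was read from the variance over the mean of its UMIs at 4000 UMIs per barcode, which is near 1 when molecules fall at random. The member median was 1.08 to 1.42 over the libraries, and the median of all features 1.01 to 1.04. Of the 40 members with enough UMIs in Lat-KO DN3 γδ−, 27 lay above the level that 95% of all features stayed under, and 13 to 21 of 38 to 40 did so in the other libraries. Stat2 (1.02 to 1.07), Irf9 (1.04 to 1.17), Gbp3, Ddx58 and Ifih1 were spread like most genes. The 5 most uneven were Cxcl10, at 15.5 in DN4 γδ+, Ifi27l2a, at 12.4 in DN4 γδ−, and Ifit3 (6.75), Isg15 (6.53) and Rsad2 (5.83), all 3 in Lat-KO DN3 γδ−. For Cxcl10 in DN4 γδ+, 85.7% of the UMIs lay in 1% of the barcodes, with up to 86 UMIs in 1 barcode. In DN4 γδ− the value of Cxcl10 was 10.3, and 0.998 with the T cell marker rule, where the most UMIs in 1 barcode went from 62 to 6. Ifi27l2a there went from 12.4 to 2.37 under the same rule. These 2 values in DN4 γδ− rested on barcodes that did not meet that rule. In Lat-KO DN3 γδ− the values of Ifit3, Isg15 and Rsad2 with the rule were 6.75, 6.53 and 5.83.

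**Figure D4:**
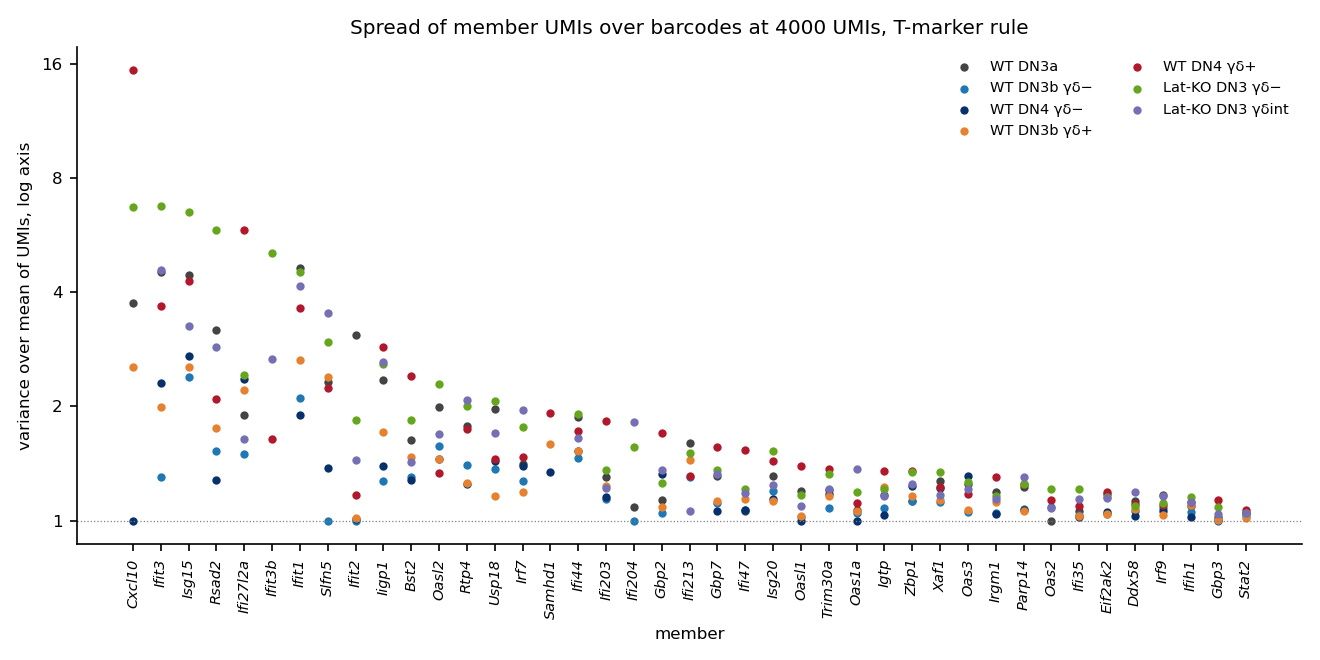
Members are on the horizontal axis in order of their highest value, points are libraries, and the vertical log axis is the variance over the mean of UMIs per barcode at 4000 UMIs, under the T cell marker rule. The dotted line at 1 is the value for molecules placed at random. Cxcl10 in WT DN4 γδ+ stands at the left, and most members lie between 1 and 2.

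Members were also counted together in single barcodes. The 17 core loci measured here (Ifit1, Ifit2, Ifit3 with Ifit3b, Isg15, Rsad2, Irf7, Oas1a, Oas2, Oas3, Oasl1, Oasl2, Usp18, Ifi44, Rtp4, Zbp1, Cxcl10 and Xaf1) are a list drawn up here from the members. It does not tell the types of interferon apart. At 4000 UMIs, at least 3 of them were found in 18.9% (17.9 to 19.9) of the barcodes of Lat-KO DN3 γδ−, 13.5% (12.6 to 14.6) of Lat-KO DN3 γδint and 12.7% (11.9 to 13.5) of DN4 γδ+. The share was 6.98% (6.37 to 7.63) in DN3a, and 1.67% (1.49 to 1.88) for DN3b γδ−, 1.57% (1.36 to 1.82) for DN4 γδ− and 1.48% (1.26 to 1.73) for DN3b γδ+. These barcodes held 69.4% of the core-locus UMIs in Lat-KO DN3 γδ−, 60.7% in DN4 γδ+, 51.0% in DN3a and 23.7% in DN3b γδ+, while 32.5% to 80.9% of barcodes held 0 core loci. They were chosen by those same UMIs, so a large part is fixed by the choice and rises with the number of barcodes chosen. The percent is therefore no measure of concentration. In B-like barcodes, 31 to 65 per library at this depth, the share was 2.56% to 10.8%. Without thinning, where deeper barcodes gain, the share of thymocyte barcodes was 8.12% in DN4 γδ− to 33.2% in Lat-KO DN3 γδ−. With the T cell marker rule the share in DN4 γδ− was 1.29%. Among barcodes with 0 cycling UMIs it was 4.37% for DN3b γδ−, 3.83% for DN4 γδ− and 3.76% for DN3b γδ+.

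**Figure D5:**
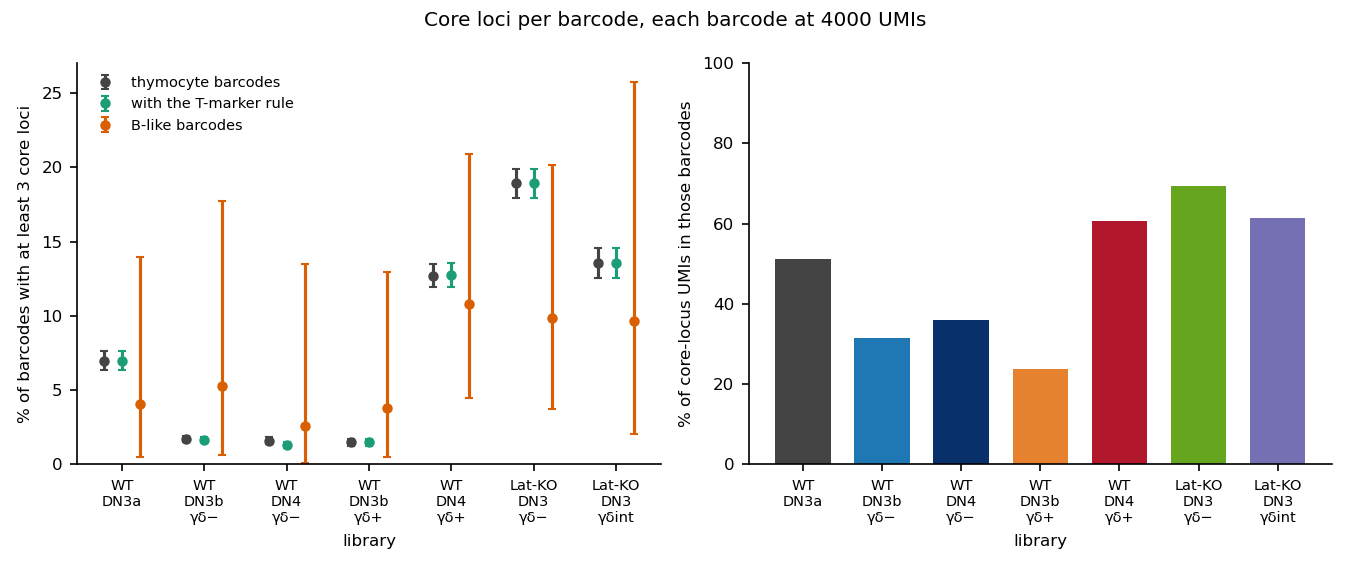
Left, the percent of barcodes with at least 3 core loci at 4000 UMIs per library for thymocyte barcodes, thymocyte barcodes with the T cell marker rule and B-like barcodes, with exact Clopper-Pearson 95% intervals. Right, bars from 0 give the percent of core-locus UMIs that lay in such thymocyte barcodes, highest in Lat-KO DN3 γδ− (69.4%) and lowest in WT DN3b γδ+ (23.7%). The barcodes were chosen by those same UMIs, so the choice fixes much of this percent.

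The barcodes with at least 3 core loci also carried more of the members that the choice did not use. Against barcodes of the same library with 0 core loci, and with the T cell marker rule, the 22 or 23 other members had median log2 ratios of 1.70 in DN3a, 2.56 for DN3b γδ−, 2.76 for DN4 γδ−, 2.72 for DN3b γδ+, 2.23 in DN4 γδ+, 1.25 for Lat-KO DN3 γδ− and 1.49 for Lat-KO DN3 γδint, while all features had medians between -0.02 and 0.09. Such barcodes are not replicates, and each library gives its own description. Stat2 had the lowest ratio of these members in 6 libraries, with 0.30 to 1.25 over all 7, and Ifi204 the lowest in Lat-KO DN3 γδint, with 0.29. Iigp1 ran from 2.35 for Lat-KO DN3 γδ− to 7.19 for DN4 γδ−. Bst2, which was lower in DN4 γδ+ than in DN3a over all barcodes, stood at 2.23 in DN4 γδ+, 0.86 in DN3a and 0.87 in Lat-KO DN3 γδ−.

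Outside the list, Ly6a, a surface protein that interferon induces, stood 1.52 to 2.73 higher in these barcodes over the 7 libraries, and the MHC class I genes H2-K1 and B2m 0.18 to 0.74 and 0.35 to 0.84. In DN4 γδ+ the egress genes S1pr1 and Klf2 stood at 1.63 and 0.84, and the γδ17 genes Maf, Sox13 and Blk at -0.50, -0.54 and -0.90. The cycling genes summed to 565 CPM in those barcodes and 1377 CPM in the ones without core loci. In Lat-KO DN3 γδ−, which had most such barcodes (1159), the 10 genes outside the list with the highest ratio were Apol9b (6.12), Cmpk2 (3.77), Ifi214 (3.68), Phf11b (3.66), Gm4951 (3.53), Gbp10 (3.28), Ifi206 (3.25), Ube2l6 (3.19), F830016B08Rik (3.03) and Gm4070 (3.001). Ube2l6 joins ISG15 to its targets, and Gbp10 and Ifi206 are relatives of members. By the thymocyte rule alone the 10 genes that led in DN4 γδ− were Gp2, Reg3g, Spink1, Wfdc18, Scx, Skint10, Eppk1, Krtdap, Tbata and Krt17, most of them known from epithelium, and the 4 epithelial markers summed to 283 CPM in those barcodes and 21.6 CPM in the ones without core loci. With the T cell marker rule these sums were 44.7 and 21.3 CPM. The keratins Krt14 (5.85) and Krt17 (5.31), the stromal gene Mgp (5.99) and the stromal chemokine Ccl21a (5.32) were still 4 of the 5 leading genes in DN4 γδ− under that rule, so the ratio of 2.76 given above for the other members there came from barcodes that also held transcripts of other cell types. Their part in it was not tested.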

How the data were processed

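The authors deposited UMI counts per gene and barcode (10x 3′ v3, mm10 with the edited Trdc gene), neither scaled nor corrected, made with Cell Ranger 4.0.0 per the file headers (5.0.1 in the submitters' processing notes, which also list R 3.6.3 and Seurat 3.1.5) and limited to barcodes called cells. The filter of the study was applied, which asks for 200 or more genes and no more than 15% mitochondrial UMIs. Thymocyte barcodes had at most 1 UMI of Cd79a, Cd79b and Ms4a1. B-like barcodes had 10 or more UMIs summed over 10 B cell genes, with a ratio of at least 2 to their UMIs summed over 10 T cell genes, and those that also met the thymocyte rule (0 to 56 per library) were left out, which was chosen after seeing the data. UMIs were summed per library and divided by the total to give CPM. Total thymocyte UMIs were 37820685 to 338698944. Ratios were formed for features with at least 20 UMIs over both libraries. For shares, barcodes were thinned to 4000 UMIs and shallower ones left out (343 to 1769 per library). The alternatives without core-locus barcodes and with 0 cycling UMIs were read after the same thinning. They too left out the shallower barcodes, also where they were used for ratios. Doublets were not called, and an alternative left out the 8% of barcodes with most UMIs. With 1 library per group, called means at least 2-fold and no test was made. The code was checked on simulated counts.

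The members and lists were chosen with earlier results of these data known. Named in full were members with the 8 highest CPM in any library and Isg15, Ifit1, Ifit3, Irf7, Stat2, Bst2 and Cxcl10. Usp18 and Samhd1 were given in full after their values were seen. The 3 highest and 3 lowest members of each comparison, the 5 most uneven members, the pathway list and the 10 genes leading the core-locus barcodes were also named. Of 28 pathway genes 9 were ligands, 6 receptors, 9 kinases and factors and 4 inhibitors. Positions and transcript lengths came from GENCODE vM21 by gene ID and promoters from RefSeq by symbol. The tools were numpy 2.4.6, pandas 2.3.3, scipy 1.17.1, numba 0.67.0 and matplotlib 3.10.9 under Python 3.11.15, with R 4.3.3 and edgeR 4.0.16 for the TMM factors alone. Summed over the thymocyte barcodes, the 10 B cell markers took 104.9 CPM in DN3b γδ+ to 280 CPM in DN4 γδ+. The part of B cell transcripts in the member levels was not tested. In the same barcodes the 7 myeloid markers took 99.3 to 190.4 CPM, the 5 plasmacytoid 44.0 to 139.7, the 5 NK 0.0502 to 10.1, the 5 erythroid 0.168 to 169.9 and the 4 epithelial 26.6 to 176. Most of the epithelial sum was Epcam (22.0 CPM in DN4 γδ− to 175 in Lat-KO DN3 γδint), which was found in 16.8% to 64.6% of barcodes. The keratins Krt5 and Krt8 were highest in DN4 γδ−, at 2.35 and 2.04 CPM.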

Additional observations from a re-analysis of the deposited data

How the results depend on the processing

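No paired analysis was possible because each group has 1 library. The median of DN4 γδ+ over DN3a, 0.23, changed sign to -0.23 without barcodes of at least 3 core loci. That alternative also left out the barcodes too shallow for thinning, and the part of each choice was not tested. The other 7 medians kept their sign, and 124 of 182 values over all alternatives stayed within the spread of the main value (for a median, the 14th to 28th member). The exceptions were as follows. Median log2 ratios to DN3a moved with TMM scaling to -1.35 for DN3b γδ−, -1.47 for DN4 γδ− and 0.094 for Lat-KO DN3 γδint, and that of Lat-KO DN3 γδint to Lat-KO DN3 γδ− to -0.51, while TMM shifted the median of all features by 0.32 to 0.36 in the 3 dividing groups, -0.17 for Lat-KO DN3 γδ− and -0.42 for Lat-KO DN3 γδint. UMIs per barcode without scaling, added after seeing the data, gave -0.49, -0.58 and -0.82 for DN3b γδ−, DN4 γδ− and DN3b γδ+ and 1.13 between the γδ stages. The mean proportion over barcodes gave -0.17, -0.66, -0.75, 0.70 and 0.30 for DN3b γδ−, DN4 γδ−, DN3b γδ+, DN4 γδ+ and Lat-KO DN3 γδint, and -0.47 within Lat-KO. It moved the median of all features up by 0.42 to 1.46 in the WT libraries. Barcodes with 0 cycling UMIs gave -1.13, -1.29 and -1.12 for DN3b γδ−, DN4 γδ− and DN3b γδ+ and -0.0499 within Lat-KO. A total without ribosomal-protein and mitochondrial genes gave 0.17 for Lat-KO DN3 γδint over DN3a and -0.47 within Lat-KO. The alternative without barcodes of at least 3 core loci (added later) left out the shallower barcodes too. Its medians were -1.39, -1.55, -1.43, -0.23 and 0.55 for DN3b γδ−, DN4 γδ−, DN3b γδ+, DN4 γδ+ and Lat-KO DN3 γδ− and 1.38 between the γδ stages. The cause of these moves was not tested beyond what each alternative itself changes.

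The percent of barcodes with at least 3 core loci, in the order DN3a, DN3b γδ−, DN4 γδ−, DN3b γδ+, DN4 γδ+, Lat-KO DN3 γδ− and Lat-KO DN3 γδint, was 16.5, 4.84, 4.04, 5.72, 25.6, 36.3 and 26.7 for at least 2 loci, 3.70, 0.866, 0.779, 0.673, 7.11, 11.4 and 7.93 for at least 4, and 3.08, 0.734, 0.776, 0.639, 5.70, 9.84 and 6.78 at 2000 UMIs. With 0 cycling UMIs it was 4.37 for DN3b γδ−, 3.83 for DN4 γδ−, 3.76 for DN3b γδ+, 14.5 in DN4 γδ+ and 15.6 in Lat-KO DN3 γδint. Without barcodes with 2 or more myeloid or plasmacytoid UMIs it was 1.92 for DN3b γδ−, 1.77 for DN3b γδ+ and 14.1 for DN4 γδ+, and without the deepest 8% of barcodes 13.7 in DN4 γδ+. The T cell marker rule gave 1.29 and leaving out barcodes with defining markers of other cell types (added later) 1.30 in DN4 γδ−.

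Counts of members past 2-fold were within 1.5 times the main count in 199 of 224 cases. The lower count fell from 33 to 11 (UMIs per barcode) and 7 (mean proportion) for DN3b γδ−, from 35 to 11 and 12 for DN4 γδ− and from 32 to 15 and 12 for DN3b γδ+, beside 6.28%, 6.65% and 8.35% of all features per barcode and 4.5%, 8.39% and 9.14% by mean proportion. The higher count in Lat-KO DN3 γδ− was 9 and in Lat-KO DN3 γδint 7 without the core-locus barcodes (5.63% and 14.2% of all features), and in Lat-KO DN3 γδint it was 5 with TMM (5.14%) and without ribosomal-protein genes (6.04%) and 6 with the mean proportion (5.77%). The 6 lower members of DN4 γδ+ were 3 without cycling (13.1%) or myeloid-marker UMIs (11%). Within Lat-KO the 4 lower members were 7 with TMM (7.6%), 2 without the core-locus and the shallower barcodes (5.19%) and 1 without myeloid-marker UMIs (4.26%), so the last 2 counts are at or below the share of all features. The low median depth of DN4 γδ+ and Lat-KO DN3 γδint limits the shares and the members with few UMIs, such as Ifit3b, Oas2 and Cxcl10.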

Other observations

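Neighbouring members of a gene cluster did not all follow the same course. Ifit1, Ifit2, Ifit3 and Ifit3b lie within 99.3 kb of chromosome 19, and in DN3b γδ− over DN3a their log2 ratios of CPM were -2.71, 0.48, -1.88 and -3.27. Ifit2 was the one of the 4 whose lowest level was in DN3a. Its UMIs in the dividing groups were spread over barcodes, with a variance over mean of 0.998 to 1.01, where Ifit1 had 2.11 for DN3b γδ−, 1.9 for DN4 γδ− and 2.65 for DN3b γδ+. Gbp2, Gbp3 and Gbp7 lie within 107.7 kb of chromosome 3, and their ratios in the same comparison were -2.62, -0.68 and -1.70. On chromosome 1, the ratio of Lat-KO DN3 γδint to DN3a was 0.01 for Ifi203, 4.52 for Ifi204 and 0.14 for Ifi213. These comparisons were chosen after the values were seen.

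Usp18 was at 25.8 CPM in DN3b γδ+ with a variance over mean of 1.16, under the 1.19 that 95% of all features stayed under there. It was at 43.5 CPM in DN4 γδ+ with 1.45, above the 1.39 of that library. In the library with most core-locus barcodes, Lat-KO DN3 γδ−, it was at 24.7 CPM with 2.07.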
